A study of Homo sapiens with 6 samples.

Results

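Hox genes and the other homeobox families of transcription factors were followed here through 6 RNA sequencing libraries of cultured cells. Members were taken by gene name, as every gene whose symbol began with one of the family names Hoxa to Hoxd, that of Six2, Lhx, Pou, Dlx, Pax, Meis, Pbx, Irx, Nkx, Tlx, Msx, Emx, Otx, Zfhx, Cux, Onecut or Tshz followed by a digit, and names containing the letters os, which mark opposite-strand transcripts, were left out. This gave 140 members of 53492 genes. By name, 9 of the 140 are not homeobox protein genes: the coactivator gene Pou2af1, the antisense transcript Dlx1as and 7 related sequences with names ending in rs. Of these, 8 were listed at 0 in every library.

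By their labels the cells were SH-SY5Y, a line grown from a human neuroblastoma, and were transfected with the vector pCS2-eGFP-N, which carries green fluorescent protein (GFP), or with pCS2-eGFP-CCNB1IP1, which carries it joined to CCNB1IP1, a ubiquitin ligase known from meiotic crossing over. There were 3 libraries in each group, from polyadenylated RNA, and the labels do not say whether replicates were separate cultures, so the p-values measure only the spread between these libraries, which may be technical. No untransfected cells were analysed here, and the share of cells that took up a vector is not given in the sources used here. Values were FPKM, fragments scaled by transcript length and library size, so levels can be set side by side between genes.

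All 140 members carried mouse identifiers, and 0 of them were found in the human gene table, so every value below is that of a mouse gene in a library labelled with a human line. Depth was not given. Taking the mean of the GFP libraries as 1, the relative depth implied by the width of the deposited intervals was 0.753 in GFP-CCNB1IP1 replicate 2 and from 0.953 to 1.05 in the other 5 libraries. Of 14 noradrenergic neuroblastoma markers, 10 reached a mean of 1 FPKM, among them Phox2a, Hand2 and Gata2, while Dbh had a mean of 0.667 FPKM. Their summed level was 1049 to 1144 FPKM in the GFP libraries and 890.7 to 975.7 in the GFP-CCNB1IP1 libraries, and the secretory gene Chgb, the largest part of it, had means of 467.9 and 359.1 FPKM. None of these genes was called. Mesenchymal markers, 2 of 12 of them above 1 FPKM, summed to 17.3 to 19.1 and 20.1 to 20.8 FPKM, and Schwann or neural crest markers, 1 of 7, to 3.24 to 3.89 and 4.11 to 4.51 FPKM. Endothelial markers, 1 of 4, summed to 1.95 to 2.40 and 2.41 to 2.67 FPKM, and epithelial markers, 0 of 6, to 0.210 to 0.376 and 0.1 to 0.199 FPKM. Macrophage or leukocyte markers summed to 4.71 FPKM in GFP-CCNB1IP1 replicate 2, with Csf1r at 2.05 FPKM, and none of the 7 reached a mean of 1 FPKM.

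Homeobox genes encode proteins that bind DNA through a conserved fold, the homeodomain, and switch programmes of development on and off. Hox genes lie in clusters, and in the embryo their order along the chromosome follows the order in which they are used from head to tail, so that the set in use records a position along the body. Pbx and Meis proteins, of the class named TALE, bind DNA together with Hox proteins, while Lhx, Pou, Pax, Dlx and Otx genes and the family of Six2 are best known for setting regions and cell types of the nervous system and sense organs.

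The question was first which members were present at all. A line was drawn at a mean of 1 FPKM over the 6 libraries, and 41 of the 140 members, or 29.3%, lay above it, beside 24.7% of all genes. All genes include microRNA and long noncoding RNA loci, while the members are nearly all protein genes, so these shares are not of like sets. None of the 41 was under 1 FPKM in any of the 6 libraries or in either group mean, so none passed through a single group. Their means ran from 1.69 to 28.2 FPKM with a median of 5.01, and the median of all 13231 genes above the line was 10.8 FPKM. Of the 41, 10 stood at 10 FPKM or more, 11 from 5 to 10 and 20 under 5.

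The remaining 99 members were mostly far below the line. In 50 of them the value was 0 in every library, and 39 had means above 0 and up to 0.1 FPKM. Few lay close to the line on either side. Just inside were Hoxc8 with a mean of 1.69 FPKM, Pax5 with 1.71, Lhx5 with 1.76 and Six5 with 1.82, and just outside were Hoxc5 with 0.896, Pax3 with 0.877, Onecut3 with 0.731 and Irx5 with 0.454.

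Whole families differed in how much of them was in use. All 3 Meis genes, all 3 Zfhx genes and both Cux genes were above the line, as were 5 of 8 Lhx and 2 of 3 Tshz genes. In the Nkx family 1 of 14 members was above it, in the Pax family 2 of 9, in the Dlx family 2 of 6 and in the Pou family 5 of 15, leaving out the names that are not homeobox protein genes. No Emx, Irx or Msx gene reached it.

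**Figure D1:**
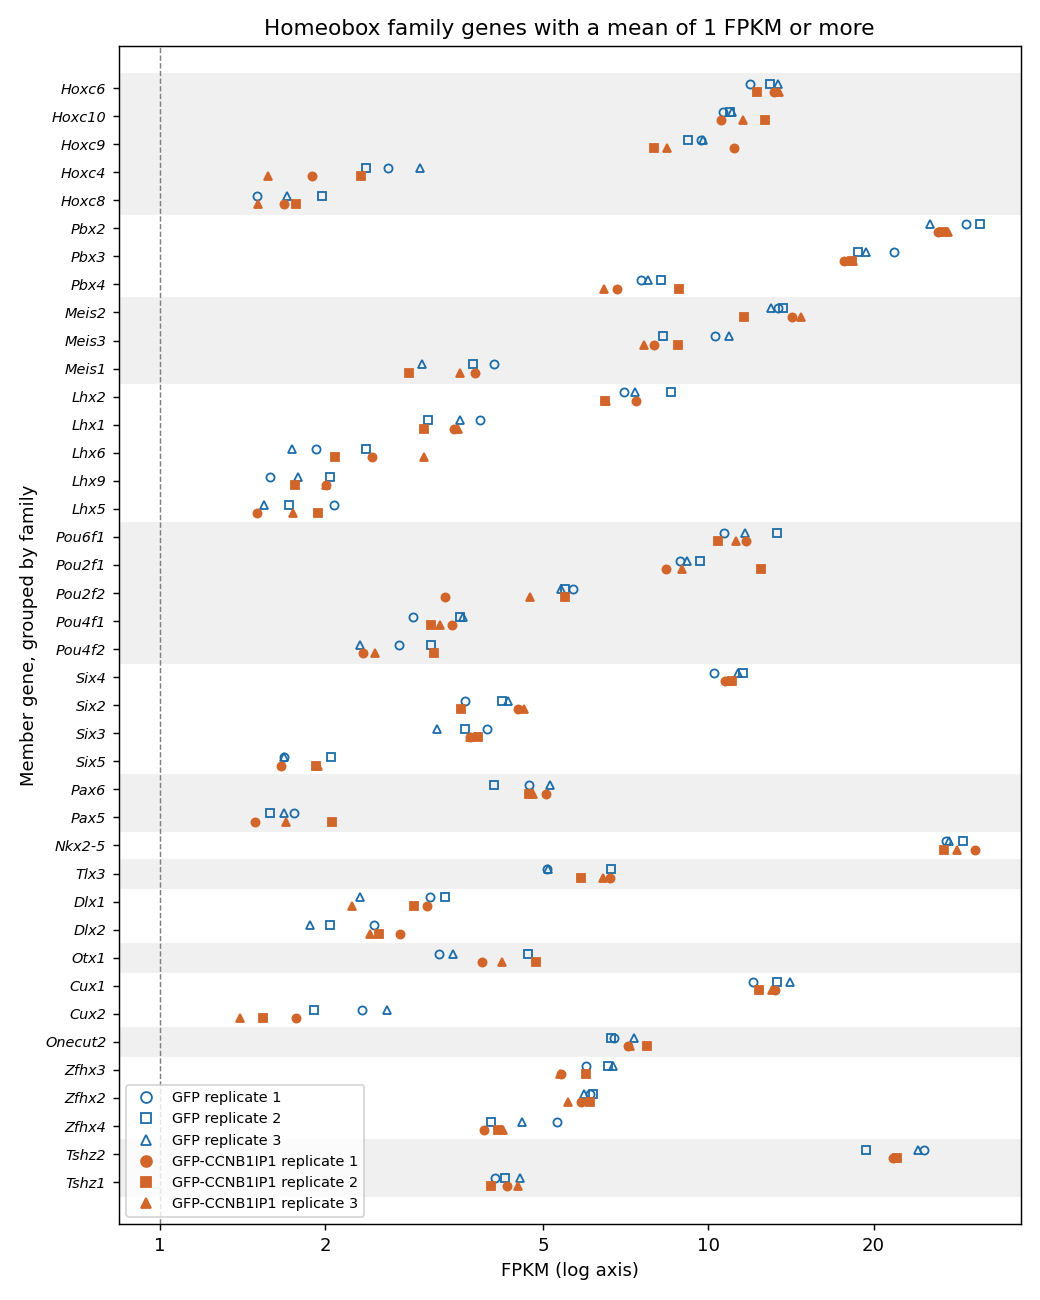
FPKM (log axis) of 40 of the 41 members above the line, by library, grouped by family and ordered by level within it; open blue symbols are the GFP and filled orange symbols the GFP-CCNB1IP1 libraries, and the dashed line marks 1 FPKM. The highest means are those of Nkx2-5 (28.2 FPKM), Pbx2, Tshz2 and Pbx3, and the ranges of the groups overlap except for Cux2, Hoxc4 and Pbx3.

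Among Hox genes, all that were expressed belonged to the HoxC cluster. Of 39 Hox genes, 5 were above the line: Hoxc6, Hoxc10, Hoxc9, Hoxc4 and Hoxc8. The 30 genes of the HoxA, HoxB and HoxD clusters had no single value above 0.0920 FPKM, and 19 of them were listed at 0 in all libraries. HoxC genes made up between 98.97 and 100% of the summed Hox FPKM of each library. The summed HoxC level was 37.4 to 39.4 FPKM in the GFP libraries and 37.2 to 39.6 in the GFP-CCNB1IP1 libraries, so the groups overlapped.

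The HoxC cluster lies on chromosome 15, from 102829538 to 102945278 in the deposited coordinates (starts counted from 1, the build is not given in the sources used here), and the loci of its 9 genes span 115.7 kb. Hoxc13, Hoxc12 and Hoxc11, the genes of its posterior end, had no value above 0.0459 FPKM, whereas Hoxc10, whose locus starts 45.7 kb from that of Hoxc13, stood at 11.2 FPKM on average. From Hoxc10 on, Hoxc9, Hoxc8, Hoxc6 and Hoxc4 were all above the line, with Hoxc5 just below it, but their levels did not follow their order along the chromosome.

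Hoxc6, which patterns the thoracic body region and limb, had the highest level, at 11.9, 12.9 and 13.4 FPKM with GFP alone against 13.2, 12.3 and 13.5 with GFP-CCNB1IP1, here and below in the order of replicates 1, 2 and 3. Hoxc10, a gene of lumbar spinal motor neurons and hindlimb, had 10.7, 10.9 and 11.0 FPKM with GFP alone against 10.5, 12.7 and 11.5 with GFP-CCNB1IP1. Hoxc9, a thoracic motor neuron gene also known for driving neuronal differentiation in neuroblastoma cells, had 9.69, 9.18 and 9.79 FPKM and 11.1, 7.95 and 8.41 FPKM. For each of these 3 genes the groups overlapped, and for Hoxc9 the GFP-CCNB1IP1 libraries held both the highest and the lowest value.

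Hoxc4, an anterior gene of the cluster, was much lower, with 2.60, 2.38 and 2.98 FPKM with GFP alone against 1.90, 2.33 and 1.58 with GFP-CCNB1IP1. All 3 GFP values lay above all 3 GFP-CCNB1IP1 values, by a margin of 2.38 against 2.33 FPKM at the closest pair. Hoxc8 had 1.51, 1.98 and 1.71 FPKM and 1.68, 1.77 and 1.51 FPKM, and its groups overlapped. Hoxc5 had 1.05, 0.780 and 0.572 FPKM and 1.196, 1.13 and 0.646 FPKM, again with overlap.

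In the order of levels, Hoxc6, Hoxc10 and Hoxc9 could not be fully parted by their ranges. Hoxc6 was above Hoxc10 in 5 of 6 libraries and Hoxc10 above Hoxc9 in 5 of 6. Between Hoxc9 and Hoxc4 the ranges were apart, 7.95 FPKM at the lowest against 2.98 at the highest. The ranges of Hoxc4 and Hoxc8 overlapped, although Hoxc4 was the higher in 6 of 6 libraries.

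Reads within the cluster may not be assigned with certainty. The deposited Hoxc5 locus runs from 102875878 to 102925861, across all of Hoxc9, Hoxc8 and Hoxc6 and most of Hoxc10, and strand was not stated. No other transcript of the cluster was near these levels: Hotair, a long noncoding RNA between Hoxc12 and Hoxc11, had a mean of 0.0134 FPKM, and the microRNA loci Mir196a-2 and Mir615 were listed at 0, which is not a measure of the mature microRNAs in a library of this kind.

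**Figure D2:**
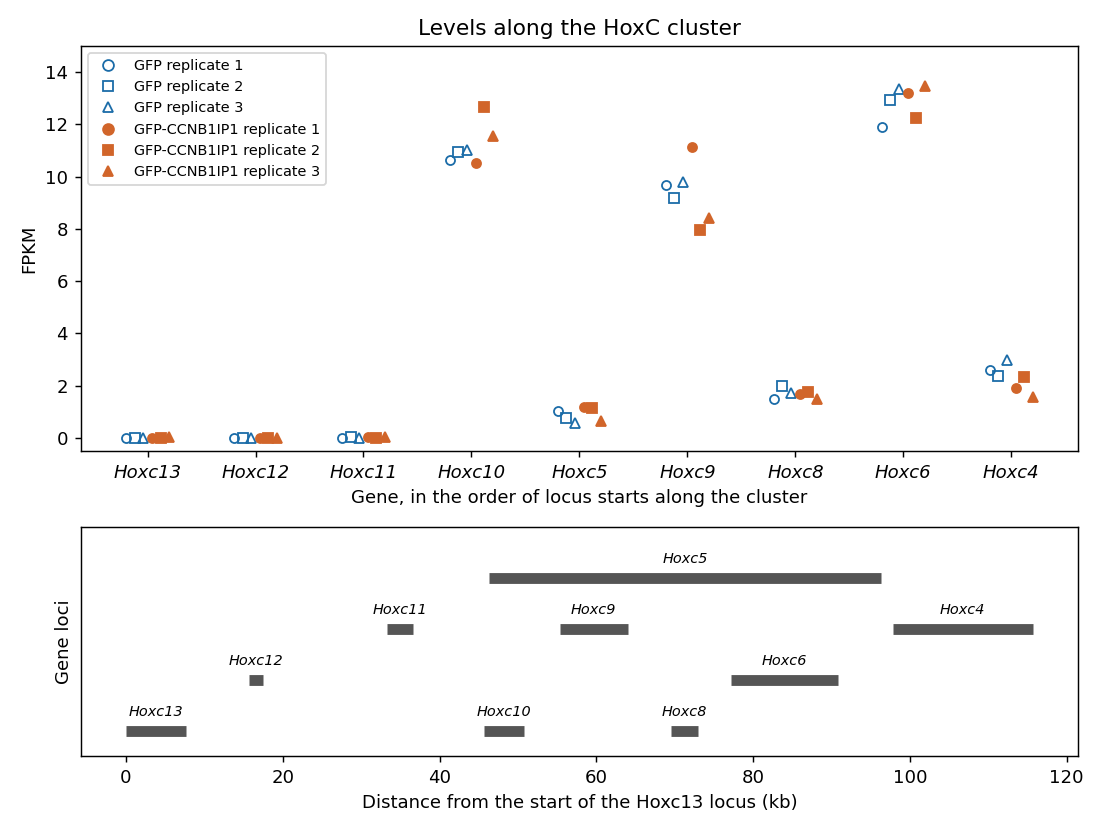
Upper panel, FPKM of the 9 HoxC genes in each of the 6 libraries, in the order of their locus starts; lower panel, the deposited loci to scale, in kb from the start of the Hoxc13 locus, with the long Hoxc5 locus on a row of its own. Values are near 0 for Hoxc13, Hoxc12 and Hoxc11, between 7.95 and 13.5 FPKM for Hoxc10, Hoxc9 and Hoxc6, and under 3 FPKM for Hoxc8, Hoxc5 and Hoxc4.

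Partners of Hox proteins were among the highest members. Pbx2, a broadly expressed Hox cofactor, had 29.5, 31.2 and 25.4 FPKM with GFP alone against 26.2, 26.7 and 27.3 with GFP-CCNB1IP1. Pbx3 had 21.8, 18.7 and 19.3 FPKM and 17.7, 18.2 and 18.3 FPKM. The groups overlapped for Pbx2, with its lowest and highest values both in GFP libraries, and did not for Pbx3, where 18.7 stood against 18.3 FPKM at the closest pair.

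Pbx4 had means of 7.83 FPKM in the GFP and 7.36 in the GFP-CCNB1IP1 libraries. Its GFP libraries lay within the range of its GFP-CCNB1IP1 libraries.

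Meis2, a cofactor on which neuroblastoma cells have been found to depend, led the Meis genes with 13.4, 13.7 and 13.0 FPKM with GFP alone against 14.2, 11.6 and 14.8 with GFP-CCNB1IP1. Meis3 had 10.3, 8.26 and 10.9 FPKM and 7.97, 8.81 and 7.64 FPKM, with overlap through GFP replicate 2 alone. Meis1, first known as a viral integration site in leukaemia, had 4.06, 3.71 and 3.01 FPKM and 3.75, 2.85 and 3.53 FPKM, with overlap.

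Nkx2-5, a gene best known as an early regulator of the heart, had the highest mean of all 140 members over the 6 libraries, closely followed by Pbx2, whose range overlapped with its own and whose mean was the higher in the GFP libraries. Its values were 27.1, 29.1 and 27.4 FPKM with GFP alone against 30.6, 26.9 and 28.4 with GFP-CCNB1IP1, and the groups overlapped. None of the other 13 Nkx genes reached the line, and 6 of them were listed at 0 throughout.

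Among the LIM homeobox genes, which set neuronal identity, Lhx2 was highest with 7.01, 8.56 and 7.35 FPKM and 7.36, 6.47 and 6.51 FPKM. Lhx1 had group means of 3.48 and 3.32 FPKM, and Lhx9 of 1.80 and 1.93. Lhx6, a gene of forebrain interneurons, had 1.92, 2.37 and 1.74 FPKM and 2.44, 2.08 and 3.03 FPKM. The groups overlapped for each of these 4 genes, and Lhx5, near the line, had 1.78 and 1.73 FPKM.

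Of the POU genes, Pou6f1, expressed in brain, had group means of 11.9 ± 1.36 FPKM (SD, n = 3) and 11.1 ± 0.656. The ubiquitous Oct-1 gene Pou2f1 had 8.88, 9.65 and 9.14 FPKM with GFP alone against 8.36, 12.5 and 8.94 with GFP-CCNB1IP1, and the Oct-2 gene Pou2f2, known from B cells and neurons, had 5.67, 5.47 and 5.39 FPKM and 3.30, 5.47 and 4.74 FPKM. In both the GFP libraries lay close together and 1 GFP-CCNB1IP1 library stood apart, replicate 2 above the rest for Pou2f1 and replicate 1 below the rest for Pou2f2.

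Pou4f1, the Brn3a gene of sensory neurons, had group means of 3.33 ± 0.381 and 3.26 ± 0.145 FPKM, and its relative Pou4f2, a gene of retinal ganglion cells, had 2.72 ± 0.400 and 2.66 ± 0.439. The neural class III genes Pou3f1 to Pou3f4 were near or at 0, with no single value above 0.0213 FPKM, and the pluripotency gene Pou5f1 was listed at 0 in all libraries.

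Six4, a gene of sensory placodes and ganglia, led its family with group means of 11.0 and 10.9 FPKM. On chromosome 17 the neighbours Six3, of forebrain and eye, and Six2, of kidney progenitors, were expressed together at means of 3.65 and 4.13 FPKM. A neighbouring pair of forebrain interneuron genes on chromosome 2, Dlx1 and Dlx2, had means of 2.82 and 2.34 FPKM.

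Dlx2 had 2.45, 2.04 and 1.88 FPKM with GFP alone against 2.74, 2.51 and 2.41 with GFP-CCNB1IP1. Its groups overlapped through GFP replicate 1. For Dlx1 the order was the reverse, with group means of 2.91 and 2.74 FPKM and overlap. The antisense transcript Dlx1as, whose locus covers that of Dlx1, was at most 0.330 FPKM, with at most 1.67 implied fragments in a library.

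Pax6, which directs eye and forebrain formation, had group means of 4.64 and 4.85 FPKM. Pax5, a gene of B cells and of the midbrain boundary, had 1.67 and 1.75 FPKM, with 9.32 to 15.7 implied fragments per library. Tlx3, a selector of sensory relay neurons, had 5.08, 6.65 and 5.11 FPKM and 6.62, 5.84 and 6.42 FPKM. Otx1, of the anterior brain, had 3.23, 4.68 and 3.42 FPKM and 3.86, 4.85 and 4.203 FPKM. The groups overlapped for these 4 genes.

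Trunk Hox genes were thus found in the same libraries as Otx1 and Six3, which in the embryo are best known from the head in front of the Hox domain. Bulk RNA does not show whether the same cells held both, and it cannot tell fewer expressing cells from less RNA per cell. The neural progenitor genes Sox1 and Sox2, outside the families, were near 0, while Nes had a mean of 19.4 FPKM.

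Among the large proteins that join zinc fingers to homeodomains, Tshz2 had 24.7, 19.4 and 24.1 FPKM with GFP alone against 21.7, 22.0 and 21.9 with GFP-CCNB1IP1, where the latter lay within the range of the former. Zfhx3 had 5.98, 6.57 and 6.71 FPKM and 5.37, 5.99 and 5.35 FPKM, and its groups met at 5.98 and 5.99 FPKM. Zfhx2 had group means of 6.06 and 5.83 FPKM, Zfhx4 of 4.63 and 4.08, Tshz1 of 4.29 and 4.26, while Tshz3 was near 0. Of the cut-type factors, Onecut2, a neuronal and liver gene, had 6.89 and 7.35 FPKM, Onecut3 was just below the line and Onecut1 was near 0.

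Cux1, a widely expressed repressor, had means of 13.2 and 12.9 FPKM. Cux2, a gene of upper-layer cortical neurons, was much lower, with 2.34, 1.91 and 2.60 FPKM with GFP alone against 1.77, 1.54 and 1.40 with GFP-CCNB1IP1. Each GFP value lay above each GFP-CCNB1IP1 value. The implied fragments, an estimate from the interval width and not a read count, were 12.8 to 31.6.

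The second question was whether any member differed between the GFP-CCNB1IP1 and the GFP libraries. None did at an adjusted p under 0.05: of 41 members tested, 0 were called higher and 0 lower (limma on log2(FPKM + 1), adjusted p from 0.357 to 0.986), where 0.00756% of all 13231 genes tested were called. Counted at p under 0.05 without adjustment, 2 members were lower, Cux2 and Hoxc4, or 4.88% against 5.77% of all genes, and 0 were higher, against 5.59% of all genes. With all libraries these shares were below those of the whole table, but the counts rest on single libraries: with each left out in turn the lower members numbered 0 to 6 and the higher 0 to 2. There were 6 lower and 2 higher without GFP replicate 2, 1 lower without GFP replicate 1 or 3, 4 lower without GFP-CCNB1IP1 replicate 2 and 0 without GFP-CCNB1IP1 replicate 3, and all genes stood at 3.91 to 6.56% in either direction. The share of lower members was then above that of all genes without GFP replicate 2 (14.6 against 6.03%) and without GFP-CCNB1IP1 replicate 2 (9.76 against 4.63%), and also without the mean-variance trend (7.32 against 5.63%). With the replicate block 1 was lower, Cux2. The groups did not overlap for 3 members, Cux2, Hoxc4 and Pbx3, all lower, which is 7.32% against 17.6% of all genes tested.

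Cux2 had a log2 fold change of -0.35 (SE 0.125, unadjusted 95% interval from -0.64 to -0.06, limma, adjusted p = 0.357). For Hoxc4 it was -0.32 (SE 0.130, interval from -0.62 to -0.02, adjusted p = 0.413) and for Pbx3 -0.13 (SE 0.069, interval from -0.29 to 0.03, adjusted p = 0.518). Meis3 had -0.24 and Zfhx3 -0.17, with adjusted p of 0.456 and 0.471. In the positive direction the values farthest from 0 were those of Lhx6 and Dlx2, at 0.22 and 0.19, with adjusted p of 0.597 and 0.568. Without GFP-CCNB1IP1 replicate 3 Lhx6 was at 0.12, and without GFP replicate 1 Pbx3 was at -0.07. The sums of the noradrenergic, mesenchymal, Schwann cell, endothelial and epithelial markers, given above, were also apart between the groups, and their part in these values was not tested.

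With all libraries the difference was bounded closely for the 3 high Hox genes. The 95% interval of the log2 fold change was -0.14 to 0.19 for Hoxc6, -0.10 to 0.26 for Hoxc10 and -0.33 to 0.20 for Hoxc9. Without GFP-CCNB1IP1 replicate 1 Hoxc9 was at -0.201, with an unadjusted p under 0.05 and an adjusted p of 0.522 (limma). Hoxc8, with fewer implied fragments, had -0.31 to 0.23. For Nkx2-5 the interval was -0.11 to 0.18, for Pbx2 -0.27 to 0.09 and for Tshz2 -0.25 to 0.17. Meis2 had the value nearest 0 among them, 0.008, with an interval from -0.20 to 0.22.

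Over the 41 members the log2 fold changes ran from -0.35 to 0.22, 28 of them between -0.1 and 0.1. The median was -0.026, beside 0.004 over all genes tested, and 25 of the 41 were negative, beside 48.6% of all genes. All 41 intervals lay inside -1 to 1 and 37 inside -0.5 to 0.5, with the outermost bounds at -0.64 and 0.54, so that a 2-fold change on this scale lay outside each member's own unadjusted interval. The scale understates changes of members near 1 FPKM.

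Single libraries moved some values. Pou2f1 had a log2 fold change of 0.077 with all libraries and -0.083 without GFP-CCNB1IP1 replicate 2. That was the shallowest library and the one with macrophage markers, and the part of either in this value was not tested. Pou2f2 had -0.26 (SE 0.145, limma, adjusted p = 0.542) with all libraries and -0.095 without GFP-CCNB1IP1 replicate 1, its low library. Neither was called with any library left out.

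**Figure D3:**
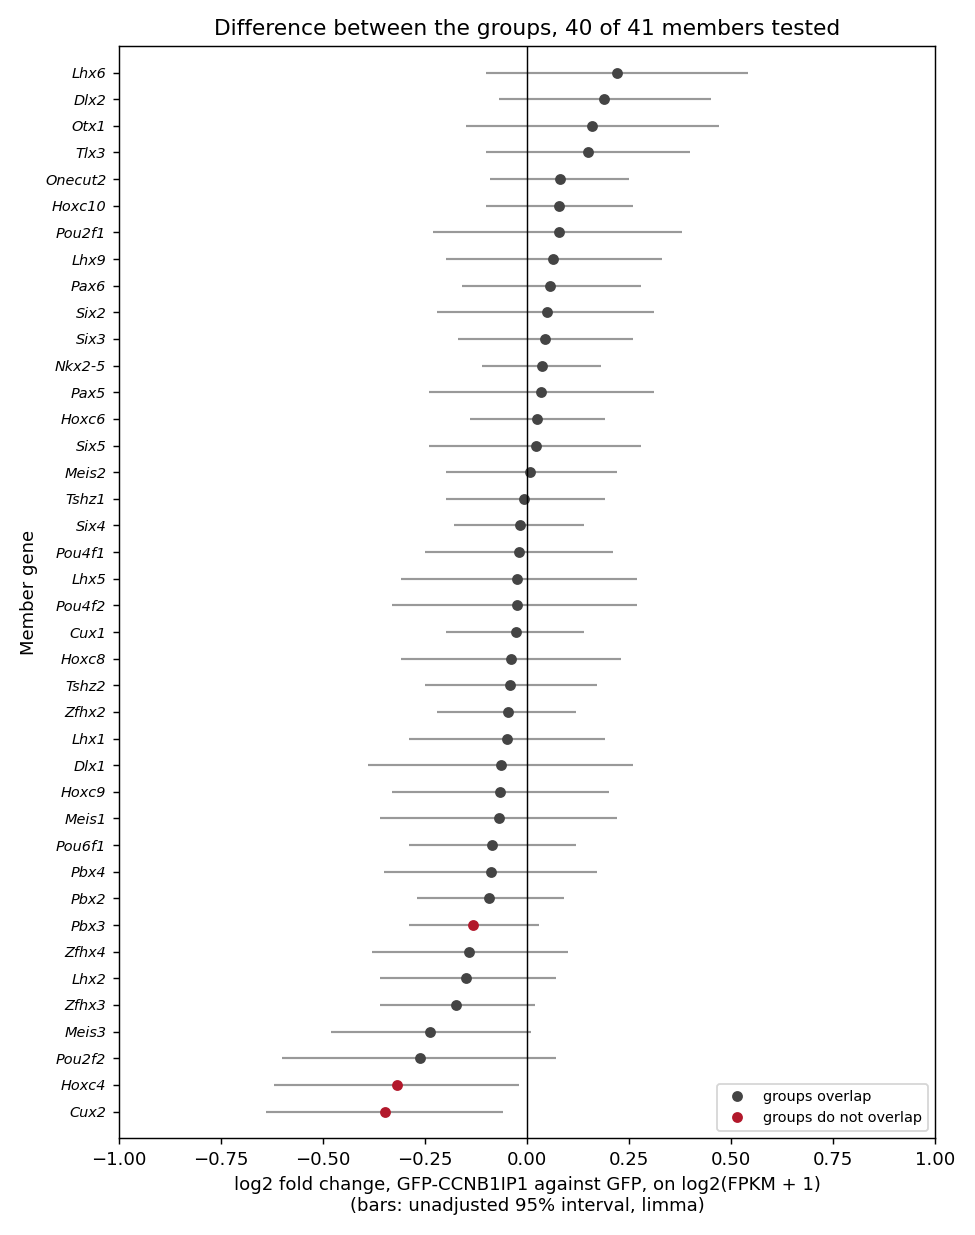
Log2 fold change of GFP-CCNB1IP1 against GFP on the log2(FPKM + 1) scale for 40 of the 41 members tested (points), with unadjusted 95% intervals from limma (bars); red points mark members whose groups do not overlap. Values run from -0.35 (Cux2) to 0.22 (Lhx6), and the intervals of Cux2 and Hoxc4 are the ones that leave out 0.

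Members below the line were read from a fit without the filter, over 26841 genes with any value above 0. Of the 49 members that this added, 0 were called and 1 had an unadjusted p under 0.05, Dlx1as, with 0.000724 FPKM, 0.0929 FPKM and a value near 0 with GFP alone against 0.158, 0.247 and 0.330 with GFP-CCNB1IP1 (adjusted p = 0.394). Over all 90 members in this fit, 1 was higher and 1, Cux2, lower at an unadjusted p under 0.05. That is 1.11% in each direction, against 3.96% of all genes higher and 4.18% lower, and 0 of all genes were called. Pax3, a neural crest gene, had group means of 0.843 and 0.910 FPKM, and Irx5 had 0.530 and 0.378 with no overlap of the groups.

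These 49 low members were not met equally often in all libraries. In GFP replicate 2, 40 of them (81.6%) had a value above 0.001 FPKM, and in the other 5 libraries 13 to 21 did (26.5 to 42.9%). Of all 13610 genes with means above 0 and under 1 FPKM, 64.9% had such a value in GFP replicate 2 and 57.0 to 60.6% in the others. In GFP replicate 2 alone 16 members were above 0.001 FPKM, 7 of them Hox genes of the HoxA, HoxB and HoxD clusters, such as Hoxa7 at 0.0920 and Hoxb1 at 0.0703 FPKM, and none had more than 1.99 implied fragments. The other libraries each held 0 to 3 such members. Those 16 are among the 49 only through GFP replicate 2, so its share of 81.6% is raised by construction. The same count over all 13610 genes was not made.

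**Figure D4:**
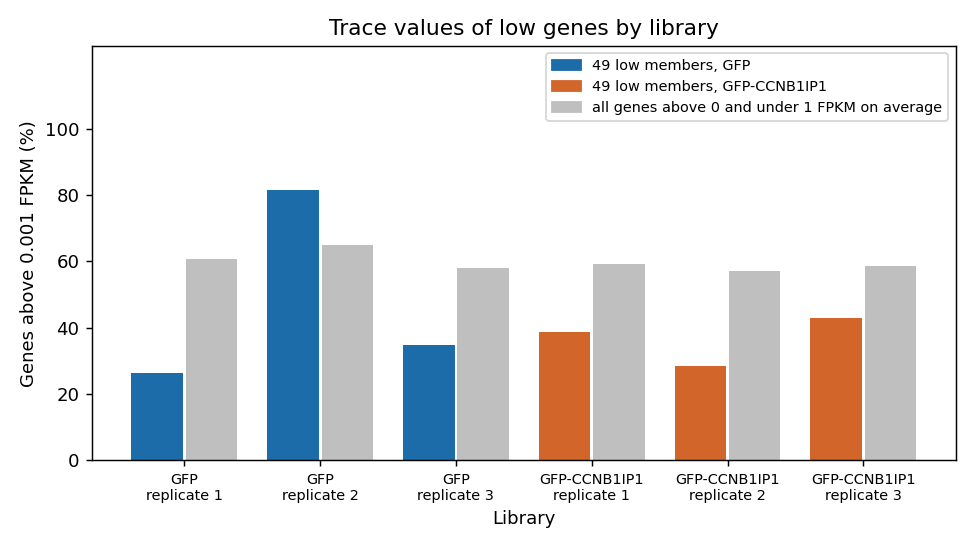
Share of genes above 0.001 FPKM in each library, for the 49 members with means above 0 and under 1 FPKM (coloured bars, by group) and for all 13610 genes in that range (grey bars). GFP replicate 2 stands at 81.6% for the members against 26.5 to 42.9% in the other libraries, while the grey bars stay between 57.0 and 64.9%. Its share is raised by 16 members that are among the 49 through this library alone.

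Other homeobox genes, outside the name rule, were taken from a list. Of 86 matched genes, 35 were above 1 FPKM, and 0 were called, with -0.016 as the median log2 fold change. At an unadjusted p under 0.05 (limma) 1 was higher and 1 lower, where 5.59% and 5.77% of all genes tested were. The groups did not overlap for 5 of the 35 (14.3%, against 17.6% of all genes tested). The sympathetic neuron gene Phox2a was the highest at 106 FPKM on average, above every member. Tgif1, a repressor of the TALE class, had 29.2, 31.2 and 28.8 FPKM with GFP alone against 35.2, 42.2 and 38.8 with GFP-CCNB1IP1, without overlap (log2 fold change 0.37, SE 0.074, limma, adjusted p = 0.196). Zeb1, a repressor of epithelial genes, had 16.6, 18.7 and 17.8 FPKM and 16.2, 15.3 and 13.3 FPKM, also without overlap (log2 fold change -0.23, adjusted p = 0.361).

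A further list of 12 held the Meis, Pbx, Pknox and Tgif genes of the TALE class and Pbxip1, which is not of that class. Not all of them are Hox cofactors, and the Meis and Pbx members are counted again. Of the 12, 11 were tested, 4 with positive and 7 with negative log2 fold changes, and 0 were called. The median was -0.069, and Tgif1 was the 1 gene with an unadjusted p under 0.05, where 5.59% of all genes were higher and 5.77% lower. The groups did not overlap for 2 of the 11 (18.2%, against 17.6% of all genes tested).

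Polycomb proteins keep unused Hox genes silent, and 29 of 31 of their genes were tested, with 0 called and a median of -0.006. At an unadjusted p under 0.05 (limma) 1 was higher and 2 were lower, where 5.59% and 5.77% of all genes tested were. Rnf2, a ubiquitin ligase of Polycomb complex 1, had 26.8, 27.4 and 30.4 FPKM and 33.6, 31.1 and 33.8 FPKM (adjusted p = 0.317, limma). Ezh2, the methyltransferase of complex 2, had 26.5, 30.8 and 28.3 FPKM and 23.9, 26.1 and 24.6 FPKM (adjusted p = 0.365), and its partner Jarid2 had 13.3, 12.8 and 12.3 FPKM and 11.5, 11.6 and 10.8 FPKM (adjusted p = 0.399). The groups did not overlap for these 3 genes and for Cbx2, or 4 of the 29 tested (13.8%, against 17.6% of all genes), and none passed.

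Of the 20 trithorax-type activators and related histone enzymes, which keep Hox genes active, 20 were tested, with 0 called, 0 at an unadjusted p under 0.05 and a median of -0.022. Kmt2a had 21.8, 22.9 and 23.1 FPKM and 18.2, 22.2 and 20.3 FPKM, with overlap. Among inducers and boundary factors 9 of 15 matched genes were tested, with 0 called and 0 at an unadjusted p under 0.05. The retinoic acid receptor gene Rarg had a mean of 23.7 FPKM and the insulator gene Ctcf 18.3. The groups did not overlap for 3 of the 9 (33.3%, against 17.6% of all genes tested). These were Rarg and Egr2, higher with GFP-CCNB1IP1, and Gdf11, lower. No noncoding RNA of the Hox clusters was above the line among 16 matched, and 14 of them were listed at 0 throughout.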

How the data were processed

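The authors' deposited tables are 1 per library and hold FPKM per gene with interval bounds, per the file headers. HISAT2 and Cufflinks are named in the submitters' processing notes, while the build, annotation and strand setting are not given in these sources. Each table has 53537 rows; 38 identifiers on several rows were summed, none of them a member. All genes with a mean of at least 1 FPKM were fitted on log2(FPKM + 1) by limma 3.58.1 (R 4.3.3), using its mean-variance trend but no block or further scaling. P-values were adjusted by Benjamini-Hochberg over all genes tested, and a gene was called below 0.05. An exact permutation test of 3 against 3 cannot go below p = 0.1, so none was used. Implied fragments are the square of FPKM over its standard error, with the upper bound read as 2 standard errors above. They are estimates and not read counts, can fall below 1, and entered no count test. The fit was also run on values simulated under its own assumptions, which does not test those assumptions for these data.

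Members, lists and rules were chosen with earlier results of these data known. Named with all libraries' values are HoxC genes above 1 FPKM, members with an unadjusted p under 0.05 and, in each family, up to 4 of the highest, some as means; of each list, those with the smallest p-values and the highest levels, in part. Values near 1 FPKM are given for 4 members on each side. Others were chosen after their values were seen. No sequences are printed, and a few genes are not reported here.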

Additional observations from a re-analysis of the deposited data

How the results depend on the processing

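None of the 41 members was called under any of the 15 alternatives, and the lowest adjusted p of any member was 0.247. The number of members expressed was 44 at a line of 0.5 FPKM, 35 at 2 FPKM, 44 in TPM and 41 with each library left out. The median log2 fold change of the members was -0.040 in TPM, -0.047 with a mean of at least 5 FPKM (21 members), and from -0.038 to -0.004 with a library left out, the last without GFP replicate 2. With the replicate block it was -0.026, 0 members and 0 genes were called, and same-numbered libraries did not deviate together (correlations of 0.023, -0.009 and -0.011 over all genes), so the numbers were not taken as pairs. The number of all genes called was 2 in TPM, 0 with a pseudocount of 5, with no filter, without the trend and with a mean of at least 10 implied fragments (added after seeing the data), and 0 to 4 with a library left out, 4 without GFP replicate 1.

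Of 19 members whose fold change is given, 267 of 280 values under the alternatives kept their sign, and 13 near 0 did not; the cause was not tested. Leaving out libraries gave ranges of -0.021 to 0.062 for Hoxc6, -0.099 to 0.025 for Hoxc8, -0.201 to 0.018 for Hoxc9, -0.012 to 0.077 for Nkx2-5, -0.149 to 0.018 for Tshz2, -0.083 to 0.179 for Pou2f1 and -0.055 to 0.106 for Meis2, and Meis2 was at -0.004 in TPM. Lhx2 was at -0.149 with all libraries and from -0.202 to -0.074 with a library left out, the last without GFP replicate 2. A pseudocount of 5, which shrinks low values by construction, gave -0.148 for Cux2, -0.143 for Hoxc4, -0.151 for Pou2f2, -0.111 for Zfhx3, 0.085 for Dlx2 and 0.099 for Lhx6. Pax5 and Cux2 had at most 15.7 and 31.6 implied fragments per library. Hoxc8 and Six5, at similar levels, had 52.1 to 76.6 and 91.3 to 140, and the cause of this difference was not tested.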

Other observations

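Transcripts named for the opposite strand of homeobox genes, which the name rule leaves out, were mostly absent. Of 16 such names, 2 had means above 1 FPKM. Six3os1, whose locus overlaps that of Six3, had 1.39, 2.11 and 1.92 FPKM with GFP alone against 1.55, 2.30 and 1.72 with GFP-CCNB1IP1, with overlap. Lhx1os had 1.53, 1.74 and 1.47 FPKM and 0.871, 0.868 and 0.720 FPKM, with no overlap and a log2 fold change of -0.50 (limma, adjusted p = 0.247), while Lhx1 itself had group means of 3.48 and 3.32 FPKM. Lhx1os was singled out after its values were seen.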
